A study of Mus musculus with 8 samples.

Results

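The Krüppel-like factors (KLFs) are zinc finger transcription factors, and 10 of them were followed here through an RNA immunoprecipitation sequencing (RIP-seq) experiment on mouse mammary cells. They are Klf2, Klf3, Klf4, Klf5, Klf6, Klf7, Klf9, Klf10, Klf13 and Klf15, taken by symbol from a table of 20586 rows and 19889 symbols, in which each row is the 3' untranslated region (3' UTR) of 1 Ensembl transcript. Each of the 10 genes had 1 row. In RIP-seq an antibody pulls a protein down with the RNA bound to it, and this RNA (IP) is sequenced beside RNA of the lysate (Input). The antibody was against CPEB2, a protein of the cytoplasmic polyadenylation element binding family that attaches to 3' UTRs and regulates poly(A) tail length and translation.

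The design has 8 libraries in 4 groups of 2. Both genotypes, wild type (WT) and CPEB2 knockout (KO), are of strain C57BL/6J 129 per the labels, and both were immunoprecipitated with anti-CPEB2. Each gave IP and Input libraries in RIP experiments 2 and 3. The labels also carry a number after the genotype, 3 in experiment 2 and 4 in experiment 3. What this number stands for is not given. The cells were used fresh, without treatment, after enzymatic dissociation of mammary glands and enrichment for epithelium. The age of the mice, whether a library came from 1 animal or a pool, and the part of Cpeb2 that was deleted are, in the sources used here, not given. P-values therefore measure how far these libraries spread, and that may be technical spread. Only Input RNA was selected for poly(A), so a difference between IP and Input also holds the difference between selected and unselected RNA.

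KLFs share 3 zinc fingers near the C-terminus that bind GC-rich and CACCC-type DNA, and they differ in the N-terminal part that recruits cofactors. One branch (Klf3, Klf8 and Klf12) recruits the corepressor CtBP. A second (among the members Klf2, Klf4, Klf5, Klf6 and Klf7) mostly activates with acetyltransferases. The remaining branch named here (Klf9, Klf10, Klf11, Klf13, Klf14 and Klf16) recruits the corepressor Sin3A. Many KLF mRNAs are short-lived and respond quickly to growth factors, shear stress, hormones or stress.

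The deposited table gives 1 log2 value per group and gene, whose behaviour is that of log2(normalized count + 1) and which carries no error. It also gives the authors' interaction, which is the log2 IP over Input in WT minus that in KO, with a standard error (SE), a Wald test and, for 5327 rows, an adjusted p. A positive interaction means higher recovery over Input in WT. Depth per library is unknown here, and the SE is the measure of precision. Of the members, 9 were tested, with a median of their mean normalized counts of 567 against 103 over all tested rows. Klf15, with a mean normalized count of 7.48, was below the authors' limit for adjustment. The Cpeb2 row had authors' values of 6.11 in WT Input and 5.98 in KO Input, so this row does not check the genotype labels. For Cpeb2 the deposited interaction of the authors' table was 2.12 ± 0.45 (SE; by the Wald test, adjusted p = 0.00119).

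None of the 9 tested KLFs passed the authors' interaction test (deposited table, adjusted p threshold of 0.05) in either direction, against a background of 2.25% of tested rows called higher and 0% called lower in WT. Their adjusted p-values by the Wald test of the authors' deposited table ran from 0.424 for Klf2 to 0.982 for Klf6. At an unadjusted p under 0.05 the count was also 0 of 9, where 13.6% of all tested rows passed. The authors' own call, made at 0.10, marks 169 rows and none of the 9. The median interaction was 0.26 over the 9 KLFs and 0.23 over all tested rows. With 8 of 9 estimates above 0, the KLFs sat beside a table in which 65.1% of rows were above 0.

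**Figure D1:**
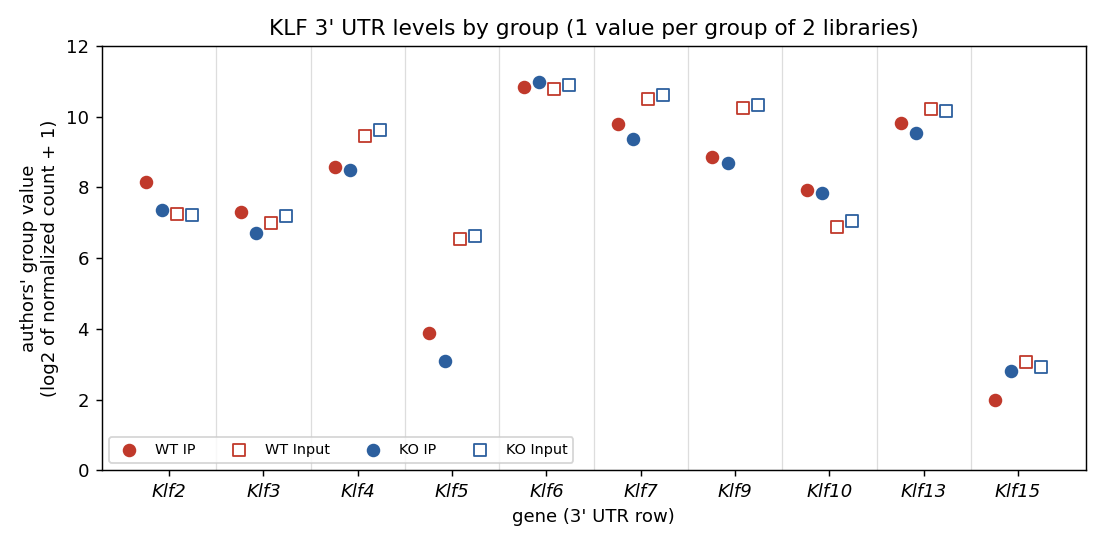
Authors' log2 value (vertical axis, log2 of normalized count plus 1) of each KLF 3' UTR in each group. Circles are IP and squares Input, red is WT and blue KO, each point standing for a group of 2 libraries without an error. The Input squares of a gene lie close together, at most 0.19 apart among the 9 tested genes, while IP lies above Input for Klf10 and far below it for Klf5.

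Klf2 had the smallest p of the 10 members and belongs to the activator branch. It is known for keeping endothelium and resting lymphocytes quiescent. Its row is the 3' UTR of ENSMUST00000067912 on chromosome 8, 72320920 to 72321656, plus strand (mm10). The authors' group values put WT IP at 8.14, KO IP at 7.35, WT Input at 7.25 and KO Input at 7.21. WT IP stood above the other groups, which lay close together. The estimate deposited by the authors in their table was 0.80 ± 0.44 (SE; by the Wald test, adjusted p = 0.424), a 1.74-fold difference with a 95% interval from -0.06 to 1.66 on the log2 scale.

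Klf4 helps build the epithelial barrier and is one of the factors used to reprogram somatic cells to pluripotency. Its row, on chromosome 4 from 55527143 to 55528124 on the minus strand, had authors' values of 8.58 in WT IP, 8.48 in KO IP, 9.45 in WT Input and 9.62 in KO Input. Both IP values were lower than both Input values, and IP minus Input was -0.87 in WT and -1.14 in KO. The authors' deposited table put the interaction at 0.26 ± 0.40 (SE; by the Wald test, adjusted p = 0.836).

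Klf5, which supports proliferation of epithelial progenitors and is often opposed to Klf4, had the largest point estimate of the 9 tested members and the least precise one. The row holds 76 bases, chromosome 14, 99313330 to 99313405, plus strand. WT IP stood at 3.87, KO IP at 3.10, WT Input at 6.55 and KO Input at 6.62 by the authors' log2 values. This 76-base row was thus the most depleted of the 9 in both genotypes. Only 1.78% of all tested rows in WT and 0.507% in KO had a lower IP minus Input difference. Whether these bases are the whole Klf5 3' UTR was not checked. The authors' deposited table gave an interaction of 0.90 ± 0.77 (SE; by the Wald test, adjusted p = 0.664), and the 95% interval ran from -0.61 to 2.40, wide enough that no difference was detectable.

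Klf6, a broadly expressed factor induced by injury and growth factors, had the highest mean normalized count of the 10 members, 1905. Its row is on chromosome 13, 5867284 to 5870393, plus strand. By the authors' values the IP level was 10.84 for WT and 10.98 for KO, and the Input level 10.77 for WT and 10.90 for KO, so that all 4 groups lay within a narrow band. It was the only one of the 9 tested members with an estimate below 0, -0.02 ± 0.33 (SE; by the Wald test, adjusted p = 0.982) per the authors' deposited table. The upper end of its 95% interval was 0.62, a 1.54-fold difference.

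Klf7, known for its part in the growth of sensory neurons, has the longest row of the 10 members, 6280 bases on chromosome 1 from 64029447 to 64035726, minus strand. Its levels, by the authors' log2 values, were 9.80 (WT IP), 9.36 (KO IP), 10.51 (WT Input) and 10.62 (KO Input). IP was below Input in both genotypes, and less so in WT. The estimate deposited by the authors in their table was 0.55 ± 0.33 (SE; by the Wald test, adjusted p = 0.480), with a 95% interval from -0.09 to 1.20.

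Klf3, the member of the CtBP-binding branch, represses transcription and in mice is known for roles in red cell and fat cell development. Its row is on chromosome 5, 64829159 to 64830129, plus strand. The authors' group values put WT IP at 7.30, KO IP at 6.71, WT Input at 6.996 and KO Input at 7.19. It was the one of the 9 tested members whose IP minus Input changed sign with genotype, 0.30 in WT and -0.48 in KO by the authors' values. The difference was not called, with an estimate of 0.78 ± 0.44 (SE; by the Wald test, adjusted p = 0.443) from the authors' deposited table, and part of it lay in Input, where WT was lower than KO by 0.19.

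In the Sin3-binding branch the 3 members, all tested, had interactions close to the median of all rows, from 0.18 to 0.25 in the authors' deposited table. Klf9, induced by glucocorticoids and thyroid hormone and a partner of the progesterone receptor, lies on chromosome 19, 23164913 to 23166911, plus strand. WT IP stood at 8.85, KO IP at 8.69, WT Input at 10.24 and KO Input at 10.34 by the authors' log2 values. Depletion in IP was strong in both genotypes, -1.38 in WT and -1.65 in KO, and the authors' deposited table gave an interaction of 0.25 ± 0.40 (SE; by the Wald test, adjusted p = 0.851).

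Klf10, an early response gene of TGF-beta, was the most recovered over Input of the 9 tested members. Its row is on chromosome 15, 38294413 to 38295904, minus strand, with authors' values of 7.92 in WT IP, 7.84 in KO IP, 6.88 in WT Input and 7.05 in KO Input. The excess over Input was 1.04 in WT and 0.79 in KO. The KO immunoprecipitate thus also held this 3' UTR above Input, and the estimate deposited by the authors in their table was 0.23 ± 0.42 (SE; by the Wald test, adjusted p = 0.866).

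Klf13, which drives the chemokine gene Ccl5 in T lymphocytes, lies on chromosome 7, 63886347 to 63891507, minus strand. By the authors' values the IP level was 9.81 for WT and 9.55 for KO, and the Input level 10.22 for WT and 10.15 for KO. Its SE was the smallest of the 10 members, and the authors' deposited table put the interaction at 0.18 ± 0.32 (SE; by the Wald test, adjusted p = 0.865). This estimate turned negative when the median of all rows was subtracted (-0.05) or when the trend over 3' UTR length was (-0.35), and it passed in neither.

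Klf15, a glucocorticoid-induced regulator of amino acid and lipid metabolism, belongs to none of these branches. Its row on chromosome 6, 90474289 to 90475238, plus strand, was barely covered, with authors' values of 1.97 in WT IP, 2.82 in KO IP, 3.05 in WT Input and 2.91 in KO Input. WT IP was the lowest of the groups. The authors' deposited table gave an interaction of -1.42 ± 1.42 (SE), with an unadjusted Wald p of 0.320, no adjusted p and a 95% interval from -4.21 to 1.37, so that no difference was detectable at this depth.

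**Figure D2:**
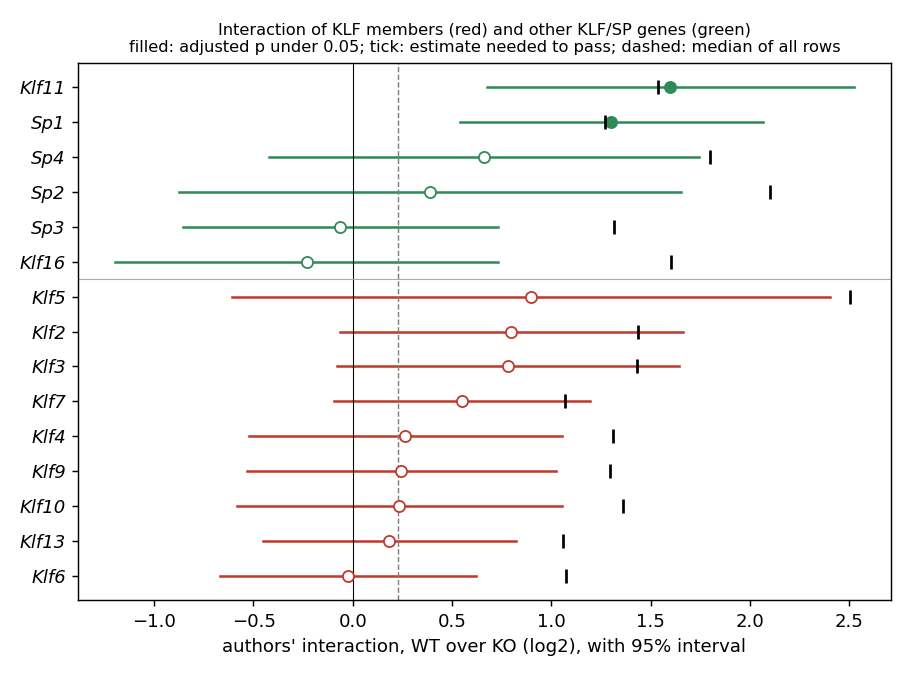
Authors' log2 interaction (horizontal axis) with its 95% interval for the 9 tested KLF members (red) and the 6 other tested genes of the KLF and SP family (green). Filled points have an adjusted p under 0.05, black ticks mark the estimate each row would have needed to pass, and the dashed line is the median of all tested rows, 0.23. No red point reaches its tick, and Klf11 and Sp1 lie just past theirs.

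The order of the estimates of the 9 tested members was not tested. All 36 pairs of 95% intervals overlapped, which is not a test of the differences between members. The smallest Wald score that passed in the table was 3.26, so an estimate of at least 1.06 would have been needed for Klf13, 1.07 for Klf6 and Klf7, 1.44 for Klf2, 1.43 for Klf3 and 2.50 for Klf5. For 8 of the 9 the upper end of the interval was below 1.74, the median interaction of the called rows, which were themselves chosen for passing. The exception was Klf5. The share of all tested rows with an upper end below 1.74 was not computed, so the count of 8 is a description only.

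The Input libraries gave the KLF levels in the 2 genotypes. WT minus KO in Input ran from -0.19 for Klf3 to 0.07 for Klf13 over the 9 tested KLFs, with a median of -0.11 beside -0.09 over all tested rows. None of them differed by 1 or more on the log2 scale, as 0% of tested rows did upward and 0.188% downward. In such mixed samples fewer cells of a type and less RNA per cell cannot be told apart. Per kilobase of row, the order of the Input levels was the same in both genotypes, with Klf5 highest (log2 level per kilobase of 10.25 in WT and 10.32 in KO), then Klf4 (9.47 and 9.65), Klf9 (9.24 and 9.34) and Klf6 (9.13 and 9.26). Klf7, Klf13, Klf2, Klf3 and Klf10 followed, from 7.86 to 6.29 in WT, and Klf15 was far below them at 2.94 in WT. These levels have no error, so neighbours that lie close, such as Klf7 (7.86) and Klf13 (7.85), are not ordered by them. The rank of Klf5 comes from division by a row of only 76 bases. Undivided, its Input values, 6.55 in WT and 6.62 in KO, were the lowest of the 9 tested members.

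In the immunoprecipitates WT was below KO for 1 of the 9, where 40.3% of all tested rows were, and exceeded it for 8. The median WT minus KO was 0.26 on the log2 scale of the authors' values beside 0.13 over all tested rows. The range was from -0.14 for Klf6 to 0.79 for Klf2, followed by Klf5 with 0.77, Klf3 with 0.58 and Klf7 with 0.44. None reached 1, a size that 6.78% of tested rows reached upward and 0.845% downward. In 7 of the 9 the IP difference was larger in size than the Input difference, the exceptions being Klf4 and Klf10. The share of all tested rows with a larger IP difference was not computed, so this count is a description only.

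**Figure D3:**
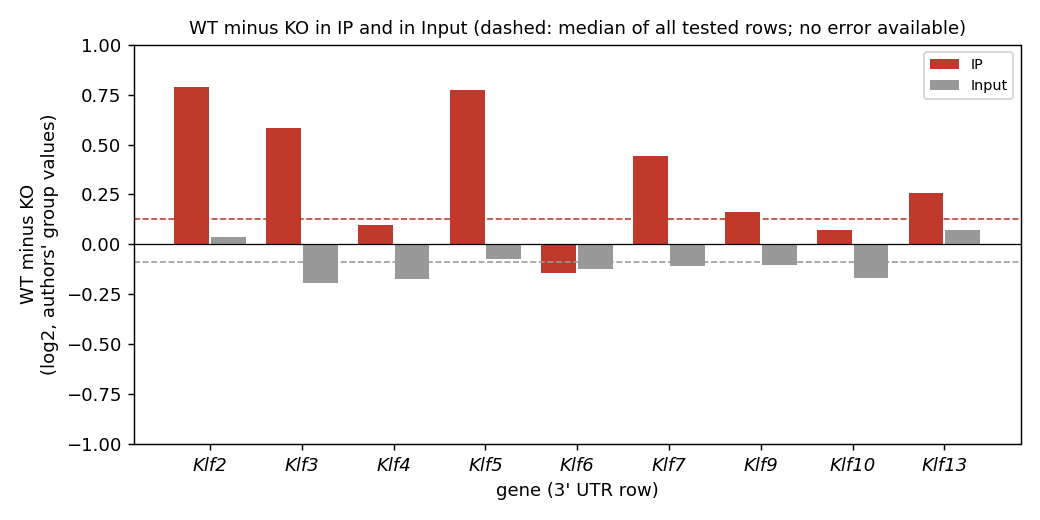
WT minus KO of the authors' log2 values (vertical axis) in IP (red bars) and Input (grey bars) for the 9 tested KLFs, with the medians of all tested rows dashed. Each bar is a difference of 2 group values without an error, and the tallest, Klf2 and Klf5 in IP, stay below 1.

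Recovery over Input differed far more between the 9 tested KLF members than between genotypes. WT IP minus WT Input ran from -2.68 for Klf5 to 1.04 for Klf10, and KO IP minus KO Input from -3.52 to 0.79 for the same genes. Within a gene, WT minus KO of this recovery ran only from -0.02 (Klf6) to 0.84 (Klf5) by the authors' group values. Of the 9, in WT 1 (Klf10) lay at least 1 above Input, where 28.1% of tested rows did, and 2 (Klf5 and Klf9) at least 1 below it, where 15.7% did. In KO none lay at least 1 above, against 17% of tested rows, and 4 (Klf4, Klf5, Klf7 and Klf9) at least 1 below, against 17%. The median KLF was below Input in both genotypes (-0.41 in WT and -0.60 in KO), while the median tested row was above it (0.29 and 0.15). Below Input lay 5 of the 9 in WT, where 40.9% of tested rows did, and 6 in KO, where 44.4% did. With 9 genes these counts do not set the KLFs apart. The sign was the same in both genotypes for 8 of 9, and the share of all tested rows that kept their sign was not computed. The Pearson correlation between WT and KO recovery was 0.97 across the 9 KLFs and 0.88 across the 5327 tested rows. The points of each correlation share libraries, so these are descriptions.

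**Figure D4:**
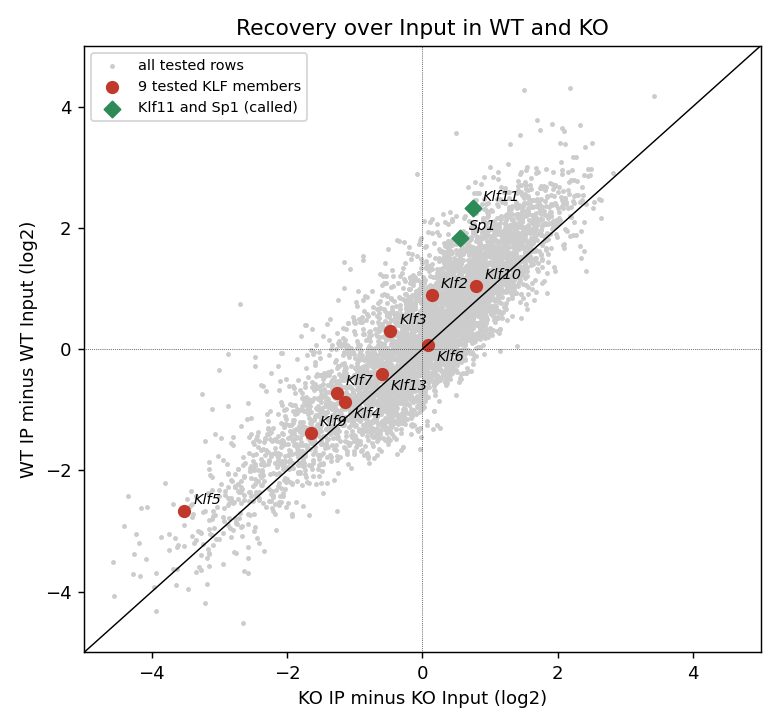
IP minus Input in WT (vertical axis) against KO (horizontal axis), both in log2 of the authors' values. Grey points are all 5327 tested rows, red points the 9 KLFs and green diamonds Klf11 and Sp1, and the diagonal marks equal recovery. The KLFs run along the diagonal from Klf5 (-2.68 in WT and -3.52 in KO) to Klf10 (1.04 and 0.79).

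The rows do not cover the KLF 3' UTRs to the same extent. None of the 10 rows overlapped another row of the table or another RefSeq gene. In the RefSeq annotation of GRCm38.p6, the same assembly as mm10, the gene ended within 10 bases of the row's 3' end for 6 of the 10. It ran further for Klf9 (1218 bases), Klf3 (2772 bases), Klf10 (2949 bases) and Klf15 (16565 bases). For these 4 the values describe the part inside the row, and sequence past it was not analysed here. Only the 3' end of each row was compared with the gene. Whether a row, such as the 76 bases of Klf5, holds the whole 3' UTR upstream of that end was not checked.

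Among the other 16 genes listed for the KLF and SP family, 6 were tested, 2 rose (Klf11 and Sp1) and 4 did not pass, with a median of 0.53. Klf11, a TGF-beta-inducible repressor and the closest relative of Klf10, is at chromosome 12, 24660464 to 24662774, plus strand. Its levels, by the authors' log2 values, were 8.28 (WT IP), 6.67 (KO IP), 5.96 (WT Input) and 5.92 (KO Input). The Inputs were alike and WT IP stood above all, and the estimate deposited by the authors in their table was 1.60 ± 0.47 (SE; by the Wald test, adjusted p = 0.0377), a 3.03-fold difference. Whether Klf11 differs from Klf10 or from the other KLFs was not tested.

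Sp1, the general activator of GC-box promoters, is at chromosome 15, 102431033 to 102436404, plus strand. The authors' group values put WT IP at 10.76, KO IP at 9.75, WT Input at 8.92 and KO Input at 9.20. Both genotypes recovered it above Input, WT more, and the authors' deposited table put the interaction at 1.30 ± 0.39 (SE; by the Wald test, adjusted p = 0.0407). Both calls were lost when the Wald test was recomputed after subtracting the median (adjusted p = 0.188 for Klf11 and 0.240 for Sp1) or the length trend (adjusted p = 0.322 and 0.647), and also when every row entered the adjustment (adjusted p = 0.118 and 0.128). Sp3, which binds the same boxes as Sp1, had -0.06 ± 0.40 (SE; by the Wald test, adjusted p = 0.960) per the authors' deposited table although its authors' values were 1.90 above Input in WT and 1.97 in KO. Klf16 had -0.23, Sp2 0.39 and Sp4 0.66 there, and the Sp2 row overlaps another row.

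Of 14 genes listed as regulators of KLFs 11 were tested, 2 rose (Mef2a and Mef2c) and 9 did not pass, with a median of 0.63. All 11 were above 0, where 65.1% of all tested rows were. MEF2 factors bind the promoters of Klf2 and Klf4 downstream of the kinase ERK5. Mef2c had authors' values of 7.65 in WT IP, 6.53 in KO IP, 7.70 in WT Input and 8.13 in KO Input, with an interaction of 1.62 ± 0.48 (SE; by the Wald test, adjusted p = 0.0395) per the authors' deposited table. Its WT IP was level with WT Input, and its KO IP lay below KO Input.

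Mef2a had authors' values of 9.51 in WT IP, 8.64 in KO IP, 7.70 in WT Input and 8.20 in KO Input, with 1.43 ± 0.43 (SE; by the Wald test, adjusted p = 0.0427) per the authors' deposited table. For both genes WT was lower than KO in Input, by 0.43 for Mef2c and 0.50 for Mef2a. Neither call held in a Wald test recomputed after subtracting the median (adjusted p = 0.188 for Mef2c and 0.224 for Mef2a) or the length trend (adjusted p = 0.481 and 0.519), nor when every row entered the adjustment (adjusted p = 0.124 and 0.133). Mapk7, which encodes ERK5, had no adjusted p.

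Of 15 listed KLF cofactors 9 were tested and none passed in either direction, with a median of 0.15. Among them the acetyltransferase Ep300 had 0.62 ± 0.45 (SE; by the Wald test, adjusted p = 0.599) per the authors' deposited table. The corepressors Ctbp1 (0.14) and Ctbp2 (0.15) and Sin3a (0.58) did not pass either in the authors' deposited table. Of 14 known KLF target genes 10 were tested, 1 rose and 9 did not pass, with a median of 0.35. The gene that rose was the cyclin gene Ccnd1, with 1.92 in the authors' deposited table (by the Wald test, adjusted p = 0.00224). Its row overlaps 1 other row, and the call was lost when the length trend was subtracted (recomputed Wald test, adjusted p = 0.0606). It held with the median subtracted (adjusted p = 0.0233 by the same test) and with every row adjusted (adjusted p = 0.00725).

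Klf2 and Klf4 are textbook endothelial genes. Of 14 listed endothelial markers 10 were tested, 3 rose (Flt1, Sox18 and Cdh5) and 7 did not pass, with a median of 0.89. Above 0 lay 8 of the 10, where 65.1% of all tested rows did. After subtraction of the median interaction of all rows the 3 calls were lost (recomputed Wald test, adjusted p = 0.0816, 0.163 and 0.210 in that order). Sox18 still passed after subtraction of the length trend (adjusted p = 0.0228 by the same test), and Flt1 with every row adjusted (adjusted p = 0.0270). The summed back-transformed level of all 14 listed endothelial markers was 3198 for WT IP and 1785 for KO IP, beside 2232 in WT Input and 2472 in KO Input. The part of these cells in the Klf2 values was not tested. KLFs are also early response genes, and of 13 immediate-early and dissociation stress genes, all tested, none passed, with a median of -0.15. Of the 13, 4 were above 0, again beside 65.1% of all tested rows. The 2 with the smallest p were Atf3 with -0.83 (Wald test, adjusted p = 0.214) and Hspa1b with -0.73 (Wald test, adjusted p = 0.279) per the authors' deposited table. The summed level of the 13 genes was 9407 in WT IP and 11283 in KO IP, and 6133 and 6525 in the Inputs. Of 6 glucocorticoid-induced genes, all tested, none passed, with a median of 0.27 and Tsc22d3 (0.82) and Per1 (-0.63) as the 2 smallest by p, per the authors' deposited table.

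Markers of epithelium were present in Input. The authors' values of Epcam were 8.33 in WT and 8.16 in KO Input, and those of Krt8 7.57 and 7.55. Markers of other cell types were present there too. In WT Input the luminal markers ran from 2.91 to 11.17 and the basal ones from 5.93 to 9.59. The fibroblast markers ran from 6.57 to 9.48 and the endothelial ones from 2.22 to 9.20. Of luminal markers 9 of 10 were tested and none passed (median 0.28, with Kit at 1.31 and Krt8 at -0.69 in the authors' deposited table), although Kit, with an adjusted p of 0.0680 by the Wald test, is among the rows the authors called at 0.10. Of basal markers 10 of 10 were tested and none passed (median -0.46, with Myl9 at -1.20 and Mylk at 0.69 there). Of fibroblast markers 8 of 8 were tested and none passed (median -0.35, with Gsn at -0.70 and Col3a1 at -0.69 in that table). Of adipocyte markers 3 of 8 were tested and Aqp7 rose (median 0.73), a call that was lost after subtraction of the median of all rows (recomputed Wald test, adjusted p = 0.0686). Of leukocyte markers 2 of 6 were tested and none passed, with Cd74 at -1.19 and Laptm5 at -0.40 in the authors' deposited table. The summed level of all 6 leukocyte markers was 155 in WT Input and 229 in KO Input.

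The tested genes whose pattern over the 4 groups lay nearest to that of Klf2 were Gabpb1, Spry1 and Hic1. After each gene's mean over the 4 groups was subtracted, their Euclidean distances from Klf2 were 0.051, 0.070 and 0.071 on the log2 scale. None of the 3 was called, with interactions of 0.61, 0.82 and 0.75 in the authors' deposited table.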

How the data were processed

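Per the submitters' processing notes, Bowtie 0.12.9, Bowtie2 2.2.2, DESeq2 and mm10 were used, without roles or order. Neither the counting rule nor its use of strand is given in the sources used here. The authors deposited 1 log2 value per group, a mean normalized count (a signal over all libraries, per the file headers), and a log2 interaction with its SE. The deposited Wald score equals the estimate over its SE, and the deposited p-value and adjusted p-value follow from it, the latter by Benjamini-Hochberg over 5327 rows. The direction was checked against the group values (Spearman correlation across rows 0.998). The deposited row positions and the authors' 0 or 1 call are other columns.

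The table also holds 8 columns of single libraries that the labels do not pair with samples, and they were not used. So the groups' differences have no error, and no test was refitted from libraries. Calls use an adjusted p of 0.05, differences of group values count from 1 on the log2 scale, and 95% intervals span 1.96 SE on either side of the estimate. Levels per kilobase are back-transformed values divided by row length. Alternatives subtracted the median interaction or its running median over 500 rows ranked by row length, adjusted over every row with a p, or used a threshold of 0.10. Row length stands for 3' UTR length in this trend. Of these steps, only the recomputed Wald test with its adjustment and the subtraction of the running median were tested on simulated data.

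The members and gene lists were chosen with earlier results of these data known. All 10 members are named, with the genes of each list that passed or, where none did, the 2 tested with the smallest p, and the 3 genes nearest in pattern to the member with the smallest p. Sp2, Sp3, Sp4, Klf16, Sin3a, Ctbp1, Ctbp2, Mapk7, Epcam and some markers were named beyond this rule, after their values were seen. One gene that the rule selects is not reported here. No 3' UTR or protein sequence was used here. The tools were Python 3.11.15, pandas 2.3.3, numpy 2.4.6, matplotlib 3.10.9 and scipy 1.17.1.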

Additional observations from a re-analysis of the deposited data

Results flagged for a closer look

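None of the 10 KLF members showed a difference between genotypes in recovery over Input that passed the test. Beside them, 10 genes named in the text did pass it, each higher in WT in the authors' deposited table at an adjusted p of 0.05. Apart from Cpeb2, they were named because they passed, so their count is no contrast to the KLFs. Within the KLF and SP family these were Klf11 with 1.60 and Sp1 with 1.30 on the log2 scale in the authors' deposited table. Among regulators of KLFs they were Mef2a with 1.43 and Mef2c with 1.62, and among KLF targets Ccnd1 with 1.92, in the same deposited table. The endothelial markers Cdh5 with 1.32, Flt1 with 1.49 and Sox18 with 2.14, the adipocyte marker Aqp7 with 2.93 and Cpeb2 itself with 2.12 complete the list from the authors' deposited table.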

How the results depend on the processing

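None of the 9 tested KLF members passed under any of the 4 alternatives to the interaction test, in which their smallest adjusted p was 0.424 (threshold of 0.10), 0.682 (median subtracted), 0.555 (length trend subtracted) and 0.99995 (every row adjusted). Of 47 alternative values of single KLF members, some could not change direction. The 9 at the 0.10 threshold and the 10 with every row adjusted repeat the deposited estimate. A further 10 are differences of the authors' group values, without a p. Only the 9 values with the median subtracted and the 9 with the length trend subtracted are shifted estimates. Among these, 2 reversed, both of Klf13, -0.046 with the median subtracted and -0.35 with the length trend subtracted. The count of all called rows, 120, fell to 30 with the median subtracted, to 17 with the length trend subtracted and to 47 with every row in the adjustment. It was 169 at the 0.10 threshold. The causes were not tested. With 1.5 in place of 1 as the size that counts, the tested KLF members past it went from 3 to 1 for WT recovery and from 4 to 2 for KO recovery. No paired analysis was possible because the columns of single libraries carry no replicate number, and leaving out single replicates was not run for the same reason. SEs of 0.32 to 0.77 limit what could be called.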

Other observations

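Across the 9 tested KLFs the Spearman correlation between 3' UTR row length and the interaction was -0.72, while across all 5327 tested rows it was 0.39. The short rows of Klf5 (76 bases), Klf2 (737 bases) and Klf3 (971 bases) had the highest estimates in the authors' deposited table, 0.90, 0.80 and 0.78, and the long rows of Klf6 (3110 bases) and Klf13 (5161 bases) the lowest, -0.02 and 0.18. Klf7, with 6280 bases, had 0.55, and Klf4, with 982 bases, had 0.26 in the authors' deposited table, against this order. The points share libraries, and with 9 genes this is a description only.

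Of the other KLF and SP genes without an adjusted p, Klf8 was counted most, with a mean normalized count of 7.005. The authors' values put it at 4.29 (WT IP), 2.71 (KO IP), 1.86 (WT Input) and 0.81 (KO Input). Its estimate in the authors' deposited table was 0.63 ± 1.59 (SE), so no difference was detectable. Klf17 and Sp8 were listed at 0 in every group.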
